A study of Bos taurus and Bos grunniens and Bubalus bubalis with 15 samples.

Results

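Mitochondrial ribosomal proteins are encoded in the nucleus, made in the cytosol and imported into mitochondria, where they build the ribosome that translates the few messages of mitochondrial DNA. Those messages encode core subunits of the respiratory chain and of ATP synthase, so the mitochondrial ribosome works beside the nuclear genes of oxidative phosphorylation and is in steady use in muscle. Its proteins fall into a large subunit, which joins amino acids, and a small subunit, which reads the message. Some descend from bacterial ribosomal proteins and others are found only in mitochondria.

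Genes were taken as members if their symbol in the array's annotation begins with MRPL or MRPS followed by a digit. The rule found 84 of 24016 probe sets, for 67 of the 9155 genes with a symbol of their own, and a gene's values were read from whichever of its probe sets was brightest over all arrays. Of these genes 53 had 1 probe set and 14 had several. All 67 brightest probe sets were bright enough to test, and their mean intensities stood between the 61.2 and 98.1 percentiles of the array, with a median at 90.0. The current gene table holds 78 genes of this naming, and 11 of them (MRPL1, MRPL17, MRPL33, MRPL40, MRPL47, MRPL54, MRPS10, MRPS12, MRPS18C, MRPS21 and MRPS33) have no probe set here and were not analysed. Of the members 45 were counted with the large subunit and 22 with the small subunit. MRPS30 and MRPS18A carry small-subunit names and were counted with the large subunit, where the protein sits. MRPS36 is now also known as KGD4, a component of the 2-oxoglutarate dehydrogenase complex. It was kept, and counted with the small subunit, because the symbol fits.

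The longissimus dorsi, a long back muscle, was sampled at slaughter from 15 animals aged 36 months, with 3 in each of 5 groups, and each animal's RNA was hybridised to 1 Affymetrix bovine array. The groups were Guangxi buffalo, Qinghai yak, and females, castrated males and intact males of Qinchuan cattle, a Chinese beef breed. The cattle were born within 30 days of each other, had a similar genetic background and were kept alike, whereas the labels used here do not give the sex or rearing of the yak and buffalo. Arrays within a group are labelled as biological replicates.

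Values are hybridisation intensities on a linear scale, and their precision is limited by having 3 arrays in a group. Differences are log2 fold changes of intensity with 16 added, and a gene is said to have risen or fallen where limma's adjusted p over all 14409 probe sets tested was under 0.05. All 7 skeletal muscle markers looked for were on the array and bright in every group, with summed intensities of 81808 to 89091 in buffalo, 97837 to 104414 in yak and 87493 to 115480.1 in cattle. The 3'/5' intensity ratio of the actin control probe sets, a measure of how much of the 5' end was read, was 1.42 to 1.73 in buffalo, 1.49 to 1.93 in yak, 1.22 to 1.33 in females, 1.24 to 1.27 in castrated males and 1.17 to 1.48 in intact males. Because the array carries cattle sequence, in yak and buffalo a difference in transcript level and a difference in how well a transcript binds the probes cannot be told apart. In bulk muscle, likewise, fewer cells of a type and less RNA per cell cannot be told apart.

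Yak muscle had the highest group mean for 32 of the 67 genes, against 14 for buffalo, 11 for females, 8 for castrated males and 2 for intact males. The lowest group mean lay in buffalo for 39 genes, in intact males for 17, in yak for 5, in females for 4 and in castrated males for 2. On single arrays, the median deviation of the 67 genes from their own means over all 15 arrays was -0.37, -0.10 and -0.23 (log2) in the buffalo, 0.27, 0.24 and 0.21 in the yak, 0.04, -0.09 and -0.01 in the females, 0.11, 0.01 and 0.11 in the castrated males, and -0.19, -0.15 and 0.03 in the intact males. Every yak array stood above every other array on this measure and every buffalo array except buffalo 2 stood below every cattle array. The same median over all probe sets tested lay between -0.03 and 0.02 on the 15 arrays. Replicates varied about as much for these genes as for others: the median SD within a group was 0.18 (log2) in buffalo, 0.12 in yak, 0.16 in females, 0.15 in castrated males and 0.19 in intact males, against 0.16, 0.13, 0.14, 0.15 and 0.19 for all probe sets tested.

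**Figure D1:**
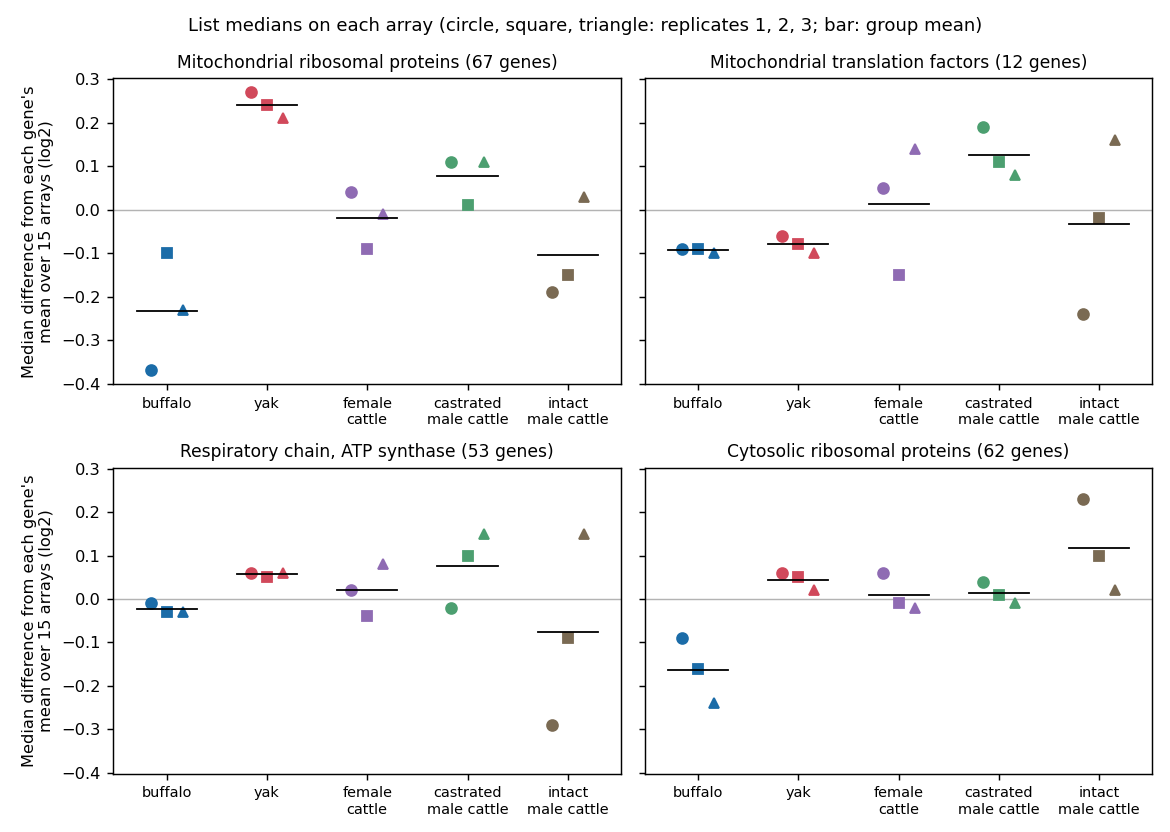
Median deviation of a gene list from each gene's own mean over 15 arrays (log2, y axis), by group (x axis), with 1 point per array and a bar at the mean of the 3 arrays. The mitochondrial ribosomal proteins stand at 0.21 to 0.27 in the 3 yak and at -0.37 to -0.10 in the 3 buffalo, while the respiratory chain list stays between -0.29 and 0.15 on all arrays.

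Yak muscle was set against cattle muscle, taken as the mean of the 3 cattle group means. Of the 67 genes 21 rose in yak (31.3%), where 13.2% of all probe sets tested rose, and 3 fell (4.48%), where 15.9% fell. The median log2 fold change was 0.26 over the members and -0.02 over all probe sets tested. MRPL57, MRPS35, MRPL11, MRPL50, MRPS18A and MRPL13 led the genes that rose, and MRPL4, MRPS14 and MRPL53 were those that fell. Both subunits held such genes, with 16 of 45 large-subunit genes higher and 2 lower, and 5 of 22 small-subunit genes higher and 1 lower.

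MRPL57, a large-subunit protein found only in mitochondria, had intensities of 1126, 953 and 908 in the 3 yak, against a lowest value of 362, a median of 423 and a highest of 479.7 in the 9 cattle. Every yak stood well above every cattle array. The difference was 1.20 ± 0.11 (log2, SE), a 2.29-fold higher intensity in yak, with limma's adjusted p = 1.03e-05. A second MRPL57 probe set also rose, by 1.26 ± 0.21 (adjusted p = 7.54e-04), with 1124, 859 and 607 in yak and 205 to 526 in cattle.

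MRPS35, a small-subunit protein found only in mitochondria, read 938, 854 and 909.9 in yak, and 243, 487 and 799 as the lowest, median and highest value in cattle. The yak were all above the cattle, but the cattle themselves spread widely, with intact males 1 and 2 lowest. The difference was 0.92 ± 0.20 (adjusted p = 0.00395). MRPL11, which forms the base of the stalk where translation factors dock, read 1227, 1378 and 1307 in yak against 678, 758 and 969 as the lowest, median and highest in cattle. No cattle array reached the yak, and the difference was 0.73 ± 0.11 (adjusted p = 5.19e-04). MRPL10, which anchors the rest of that stalk, rose by 0.59 ± 0.11 (adjusted p = 0.00189). MRPL12, the stalk protein that contacts the factors, differed by 0.31 ± 0.13 and did not pass the test (adjusted p = 0.0869), with 441, 491 and 519.6 in yak and 289 to 505 in cattle.

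MRPL50 read 849, 794 and 836 in yak against 378, 511 and 653 as the lowest, median and highest in cattle, and rose by 0.70 ± 0.13 (adjusted p = 0.00154). MRPL13, a bacterial-type protein of the large subunit, read 1429.5, 1324 and 1286 in yak and 717, 824 and 1055 in the same order in cattle, and rose by 0.65 ± 0.12 (adjusted p = 0.00169). MRPS18A rose by as much, 0.65 ± 0.19 (adjusted p = 0.0192), but the groups overlapped, with 459, 519.8 and 404 in yak and 228 to 422 in cattle. For MRPL50 and MRPL13 no cattle array reached the lowest yak. The other genes that rose had differences between 0.39 for MRPL36 and 0.64 for MRPS5 and MRPL48.

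Only 3 genes fell in yak. MRPL4, whose bacterial counterpart lines the exit tunnel, read 451, 461 and 348 in yak against 452, 590.3 and 858 as the lowest, median and highest in cattle, a difference of -0.52 ± 0.17 (adjusted p = 0.0318). MRPS14 of the small-subunit head read 1214, 1125 and 1237 in yak and 1410.2 to 1827 in cattle, a difference of -0.39 ± 0.10 (adjusted p = 0.0122), and a second probe set fell by 0.77 ± 0.17 on the log2 scale (adjusted p = 0.00415). MRPL53 fell by 0.36 ± 0.11 on the same scale (adjusted p = 0.0243). Of the 3, only MRPS14 separated the yak from every cattle array, and over all members the yak stood wholly above the cattle for 16 genes and wholly below for 1, where 8.83% and 10.4% of all probe sets tested did so.

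Several members named for a known role did not pass the test in yak. Among these were MRPL3 at -0.17 ± 0.14, MRPL44 at -0.40 ± 0.22, MRPS16 at 0.22 ± 0.14, MRPS22 at 0.21 ± 0.23, MRPS34 at 0.00 ± 0.12 and MRPL24 at 0.19 ± 0.13, with adjusted p between 0.177 and 0.985. MRPL44, an RNase III-like protein of the large subunit, varied widely within the group, with 370.3, 232 and 128 in the yak. MRPS30 differed by -0.03 ± 0.12, MRPS18B by 0.42 ± 0.16 (adjusted p = 0.0679) and MRPL45, which holds the ribosome at the inner membrane in human cells, by -0.28 ± 0.16. The count of 24 genes called in yak (29.1% of all probe sets tested were called) depended on single arrays and on the cattle chosen, being 13 without yak 1, 10 without yak 2 and 14 (12 higher and 2 lower) with the intact males left out. In those settings 15.8%, 17.4% and 21.6% of all probe sets tested were called in either direction. The members' share was above that in the first setting and below it in the others. By direction, 11 members rose and 2 fell without yak 1, where 6.97% and 8.86% of all probe sets tested did. Without yak 2, 10 rose and 0 fell, against 8.24% and 9.21%. With the intact males left out, 12 rose and 2 fell, against 10% and 11.6%. The genes MRPL11, MRPL13, MRPL50, MRPL57 and MRPS35 passed in yak in every setting tried. Beside these results, all 6 fibroblast markers (COL1A1, COL1A2, COL3A1, DCN, LUM and PI16) fell in yak, with summed intensities of 4069.9 to 5321 in yak and 7985 to 39519 in cattle. Of the adipocyte markers 2 of 4 fell in yak (median -1.72), and of the macrophage markers 2 of 5 (median -1.04). With all arrays and cattle groups included, 15.9% of all probe sets tested fell in yak. In yak PI16 read 44.0 to 48.7, MSR1 46.6 to 64.6, ADIPOQ 26.7 to 75.2 and CIDEC 29.3 to 44.0. On average these lay below the mean level that the filter on dim probe sets asked for (6.42, log2 with 16 added). They were tested only because they were brighter in cattle groups, so any call of theirs is a description only. The part of these markers in the differences was not tested.

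**Figure D2:**
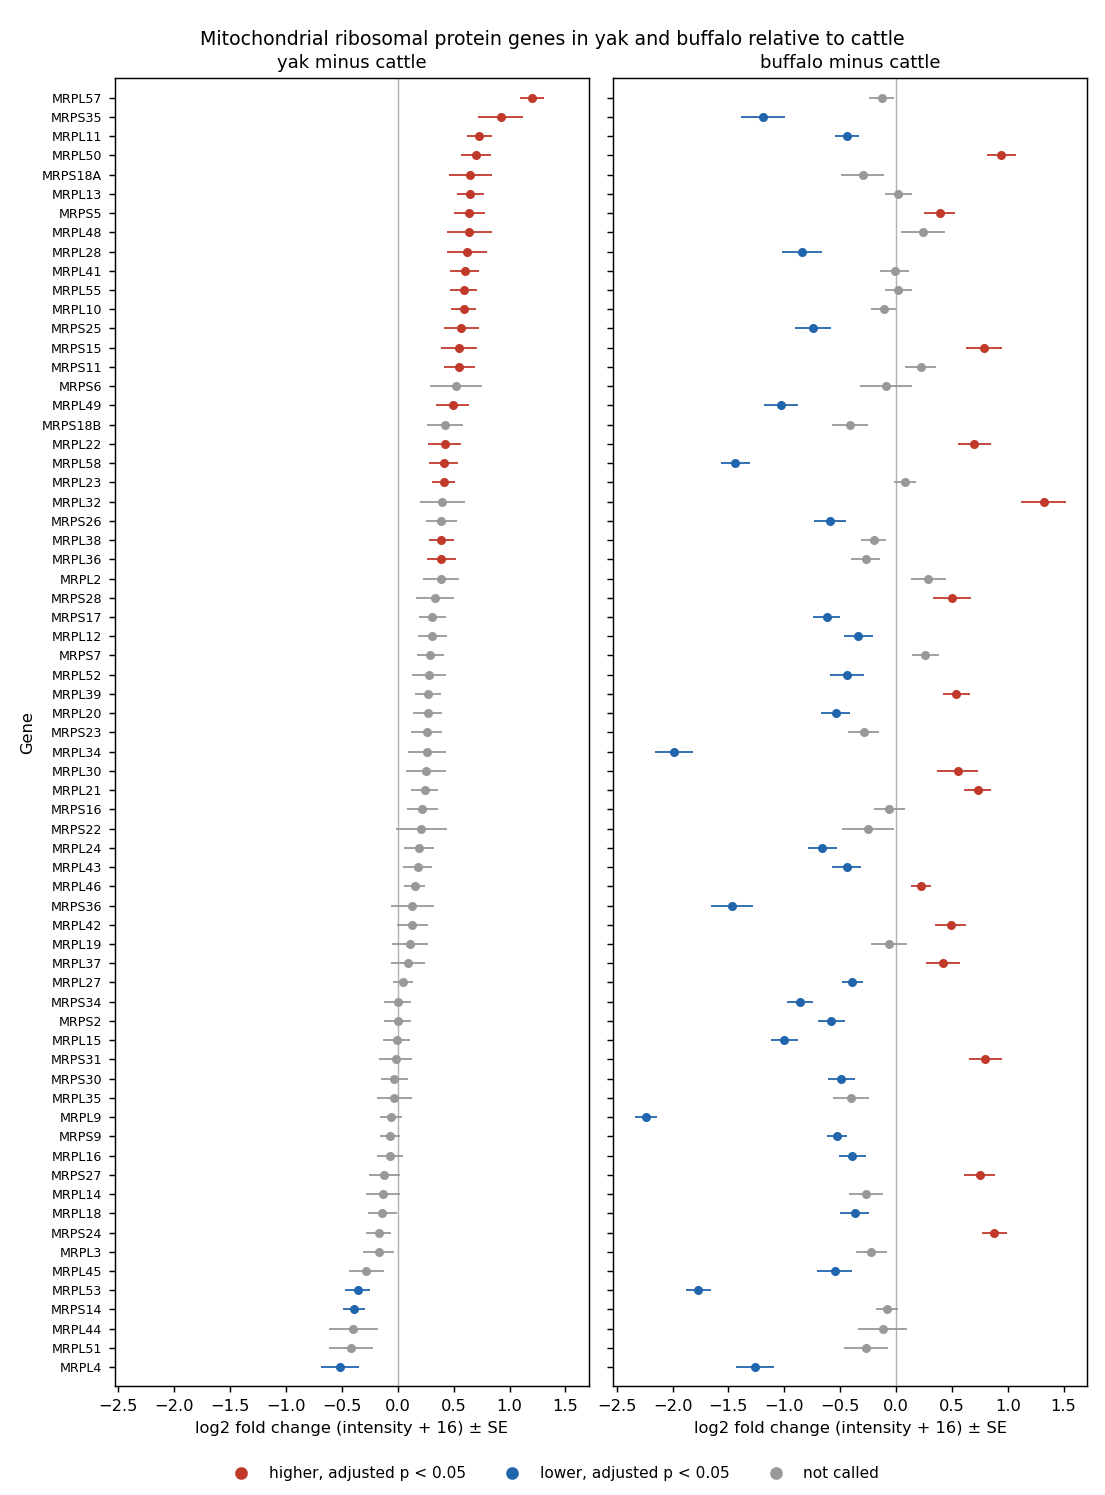
Log2 fold changes (x axis, intensity with 16 added) of the 67 genes in yak minus cattle (left panel) and buffalo minus cattle (right panel), with bars for the SE and genes in the order of the yak values. In yak 21 genes are higher and 3 lower, and in buffalo 15 are higher and 27 lower, a split that becomes 19 higher and 18 lower after quantile normalization.

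Buffalo muscle was compared with the same 9 cattle arrays, so the values of this comparison are not independent of those of yak minus cattle. In all 42 of the 67 genes were called, where 51.4% of all probe sets tested were. Of the members 15 rose in buffalo (22.4%), where 23.0% of all probe sets tested rose, and 27 fell (40.3%), where 28.4% fell. The median was -0.27 over the members and -0.03 over all probe sets tested. The members are bright genes. Of all probe sets with a mean above the 60th percentile, 18.2% rose and 33.6% fell, with a median of -0.12. The genes that fell were led by MRPL9, MRPL34, MRPL53, MRPS36, MRPL58 and MRPL4, and those that rose by MRPL32, MRPL50, MRPS24, MRPS31, MRPS15 and MRPS27. In the large subunit 9 genes rose and 19 fell, and in the small subunit 6 rose and 8 fell.

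MRPL9, a bacterial-type protein of the large subunit, read 582, 559 and 541 in the 3 buffalo, against 2102, 2881 and 3042 as the lowest, median and highest in the 9 cattle. MRPL34, another bacterial-type protein of that subunit, read 263, 358 and 280.3 in buffalo against 617, 1295 and 1708 in the same order in cattle. MRPL53, found only in mitochondria, read 1316, 1029 and 1063 in buffalo against 2971, 4046 and 4355 in cattle. For all 3 genes every buffalo stood far below every cattle array, as it did, by any margin, for 18 members in all, with 9 wholly above, where 18.3% and 13.8% of all probe sets tested did so. The differences were -2.24 ± 0.10 for MRPL9 (4.71-fold lower, adjusted p = 3.40e-09), -1.99 ± 0.17 for MRPL34 (3.98-fold lower, adjusted p = 7.13e-07) and -1.77 ± 0.11 for MRPL53 (3.40-fold lower, adjusted p = 4.56e-08).

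MRPL58, a peptidyl-tRNA hydrolase built into the large subunit that frees stalled chains, read 678, 767 and 591 in buffalo against 1476, 1808 and 2339.8 as the lowest, median and highest in cattle. MRPS36 read 314, 628 and 451 in buffalo against 832, 1281 and 1738 in that order in cattle. The groups did not overlap for either gene. MRPL58 fell by 1.44 ± 0.13 on the log2 scale (adjusted p = 1.40e-06) and MRPS36 by 1.47 ± 0.19 (adjusted p = 2.74e-05). MRPL4 read 219, 247 and 266 in buffalo against 452 to 858 in cattle, and differed by -1.26 ± 0.17 (adjusted p = 3.90e-05). Among the members named for a known role, MRPS34 fell by 0.86 ± 0.12 (adjusted p = 7.08e-05) and MRPL24 by 0.66 ± 0.13 (adjusted p = 7.96e-04). A second MRPS34 probe set differed by less, -0.25 ± 0.08 (adjusted p = 0.0241). MRPL11, MRPL12, MRPS30 and MRPL45 also fell. MRPL3 at -0.22 ± 0.14, MRPL44 at -0.12 ± 0.22, MRPS16 at -0.06 ± 0.14 and MRPS22 at -0.25 ± 0.23 did not pass, nor did MRPS18A and MRPS18B. MRPS22 was low on a single buffalo array, with 154, 442 and 409.6 in buffalo and 283 to 475 in cattle.

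Among the genes that rose, MRPL32, which in yeast and mouse is trimmed by the inner-membrane protease before it enters the ribosome, read 461, 825 and 668 in buffalo against 192, 249 and 313 as the lowest, median and highest in cattle. The difference was 1.32 ± 0.20 (2.49-fold higher, adjusted p = 1.07e-04). MRPS24, of the small-subunit head near the message's entry, read 1191, 1128 and 1015 in buffalo and 456, 616 and 704 in that order in cattle, a difference of 0.88 ± 0.11 (adjusted p = 2.48e-05). MRPS27, a pentatricopeptide repeat protein of the small subunit, read 211, 313 and 341 in buffalo and 131, 163 and 190.2 in cattle, a difference of 0.75 ± 0.14 (adjusted p = 7.85e-04). In each of these genes the buffalo stood above all cattle. MRPL50 rose by 0.94 ± 0.13 (adjusted p = 4.91e-05), with 975, 1171 and 823 in buffalo. MRPS31 rose by 0.80 ± 0.15 and MRPS15 by 0.79 ± 0.16, with adjusted p of 4.94e-04 and 0.00117.

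**Figure D3:**
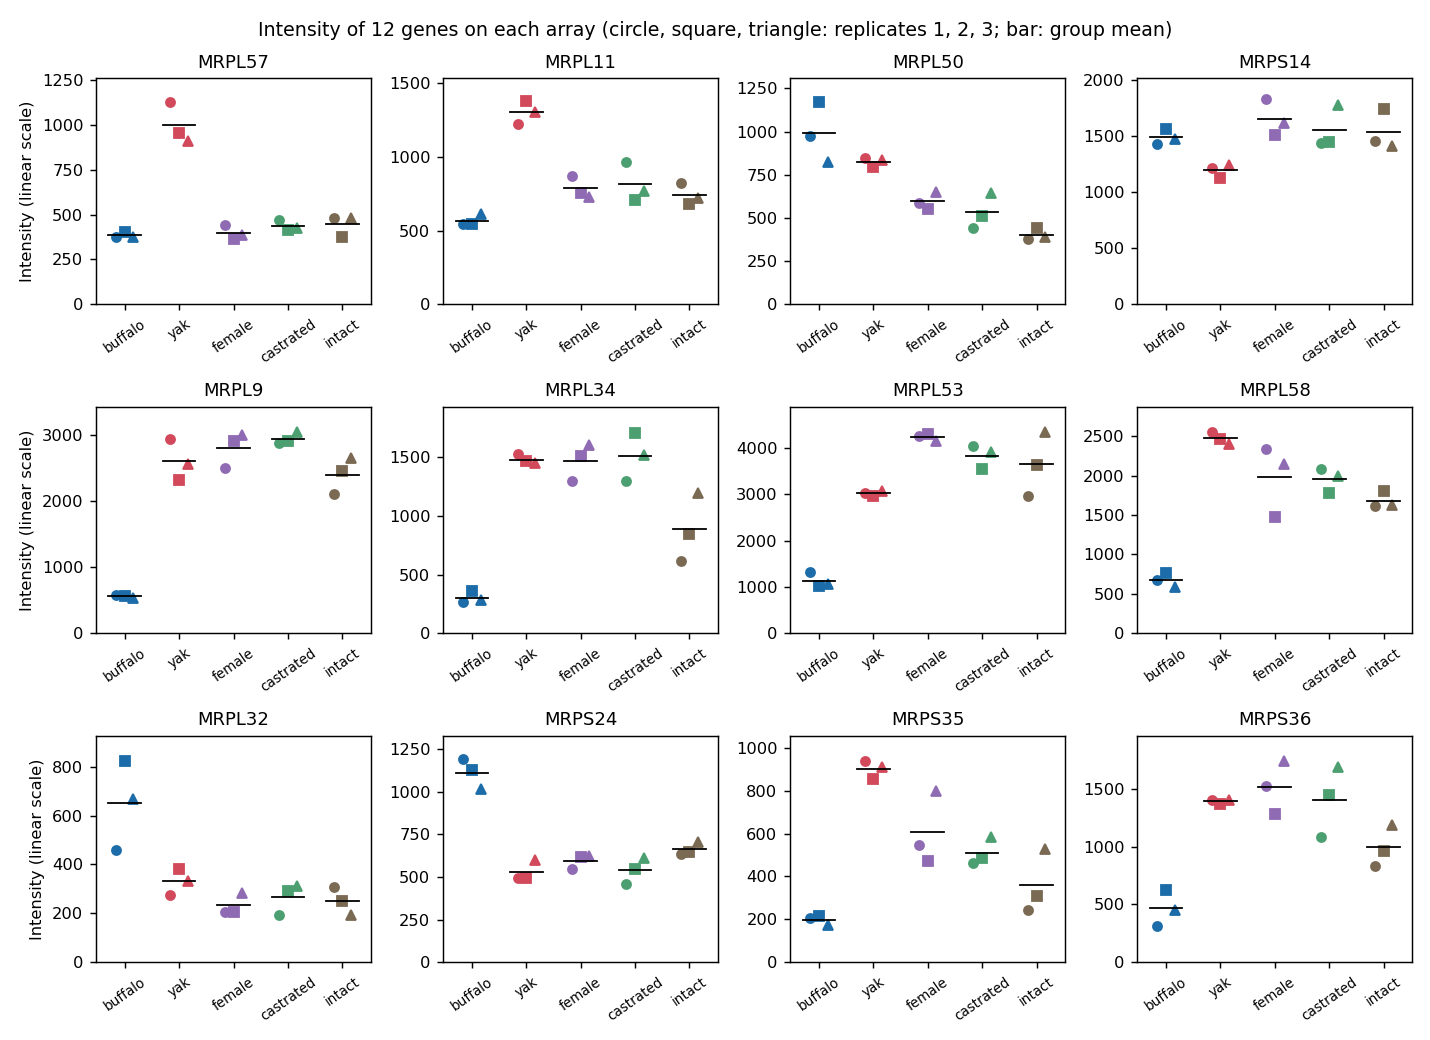
Intensity (y axis, linear, from 0) of 12 of the members on each of the 15 arrays by group (x axis), with 1 point per array and a bar at the group mean. MRPL57 and MRPL11 are highest in yak, MRPL9, MRPL34, MRPL53, MRPL58 and MRPS36 are lowest in buffalo, MRPL32 and MRPS24 are highest in buffalo, and MRPS14 is lowest in yak.

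The direction of the buffalo list as a whole depended on scaling. After quantile normalization 19 genes rose and 18 fell, where 30.6% and 24.2% of all probe sets tested did so, with a median of -0.01 where all probe sets tested had 0.06, and without buffalo 1 the median was -0.15. Beside these results, 4 of 7 skeletal muscle markers and 6 of 6 fibroblast markers fell in buffalo, with a median of -0.43 for the muscle markers and fibroblast sums of 3489 to 5834 in buffalo. Of the adipocyte markers 2 of 4 fell and 1 rose (median -1.43), and of the macrophage markers 3 of 5 fell (median -1.08). These marker counts are without quantile normalization, where 23.0% of all probe sets tested rose and 28.4% fell. In buffalo PI16 read 43.5 to 49.3, MSR1 26.9 to 57.3, ADIPOQ 27.8 to 51.7 and CIDEC 23.7 to 77.0. On average these lay below the mean level that the filter asked for. They were tested only because they were brighter in cattle groups, so any call of theirs is a description only. The part of these markers in the differences was not tested.

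Buffalo and yak were also compared directly. In all 40 of the 67 genes were called, where 42.2% of all probe sets tested were. Of the members 5 rose in buffalo (7.46%), where 19.5% of all probe sets tested rose, and 35 fell (52.2%), where 22.7% fell. The median was -0.46 over the members and 0.01 over all probe sets tested. Of all probe sets with a mean above the 60th percentile, 16.4% rose and 28.0% fell, with a median of -0.08. Buffalo stood wholly below yak for 40 genes and wholly above for 9, where 28.5% and 26.7% of all probe sets tested did so. After quantile normalization 11 rose and 27 fell, where 23.0% and 19.7% of all probe sets tested did so, with medians of -0.30 and 0.06. Beside these results, 4 of 7 skeletal muscle markers fell and 1 rose in buffalo, with a median of -0.42, and their part in the differences was not tested.

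The genes furthest apart were MRPL34 at -2.25 ± 0.20 (adjusted p = 2.45e-06), MRPL9 at -2.18 ± 0.12 (adjusted p = 4.84e-08) and MRPS35 at -2.10 ± 0.24 (adjusted p = 1.75e-05). MRPS35 read 205, 214 and 175 in buffalo against 938, 854 and 909.9 in yak, through its brightest probe set. MRPL58 read 678, 767 and 591 in buffalo against 2557, 2463 and 2406 in yak, a difference of -1.85 ± 0.16 (adjusted p = 1.65e-06). MRPL49 read 228, 182 and 207 in buffalo against 612, 679 and 569.8 in yak, a difference of -1.52 ± 0.18 (adjusted p = 2.63e-05), and MRPS36 differed by -1.60 ± 0.23. All of these buffalo arrays stood below all yak arrays. The stalk proteins MRPL11 and MRPL12 fell by 1.18 ± 0.14 and 0.65 ± 0.16 on the log2 scale, with adjusted p of 2.49e-05 and 0.00516. MRPS18A and MRPS18B, paralogues placed in different subunits, fell by 0.94 ± 0.23 and 0.83 ± 0.20, with adjusted p of 0.00490 and 0.00482. The 5 genes that rose were MRPS24 at 1.05 ± 0.14, MRPL32 at 0.92 ± 0.24, MRPS27 at 0.86 ± 0.18, MRPS31 at 0.82 ± 0.18 and MRPL21 at 0.48 ± 0.14, with adjusted p between 5.26e-05 and 0.0165.

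For some genes the result differed between probe sets. In yak minus cattle, 11 of the 13 genes with several tested probe sets had all of them on the same side of 0, where 63.4% of all 1638 genes with several tested probe sets did, and none was called both higher and lower (1.83% of all such genes were). In buffalo minus cattle 6 of 13 did, against 57.6% of all such genes, and MRPL20 and MRPS35 were called both ways, where 166 of the 1638 were (10.1%). The second MRPS35 probe set read 421, 441 and 353 in buffalo against 158, 228 and 278 as the lowest, median and highest in cattle, and rose by 0.80 ± 0.12 (adjusted p = 1.21e-04), while the brightest fell by 1.19 ± 0.20 on the log2 scale (adjusted p = 2.28e-04). In yak the same pair rose together, by 0.92 ± 0.20 and 0.70 ± 0.12. The brightest MRPL20 probe set fell by 0.54 ± 0.13 in buffalo on the log2 scale and the other rose by 0.40 ± 0.13. In buffalo minus yak MRPS2 was called both ways, at -0.58 ± 0.14 and 0.60 ± 0.12, where 6.65% of all such genes were. All 3 probe sets of MRPL23 rose in yak, by 0.41 ± 0.10, 0.54 ± 0.10 and 0.63 ± 0.12. MRPL43 fell in buffalo through both of its probe sets, by 0.44 ± 0.13 and 0.48 ± 0.12 on the log2 scale.

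**Figure D4:**
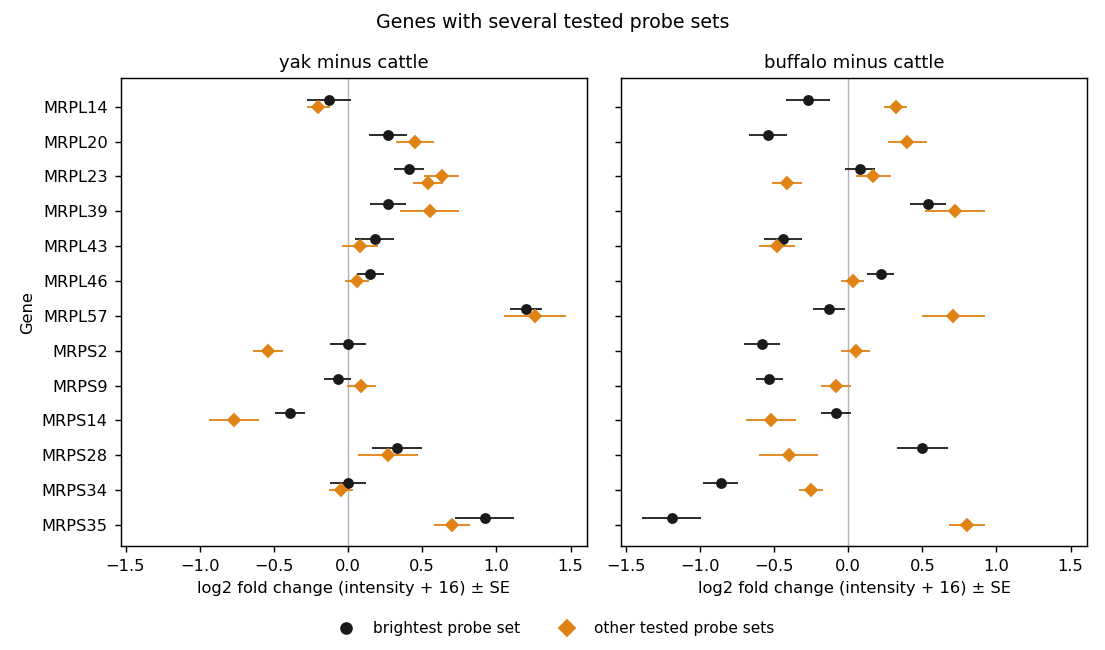
Log2 fold changes (x axis, ± SE) of every tested probe set of the 13 genes with several, in yak minus cattle (left panel) and buffalo minus cattle (right panel), with the brightest probe set as a circle and the others as diamonds. The pairs of MRPL57 and MRPS35 lie together in yak, and MRPS35 and MRPL20 lie on opposite sides of 0 in buffalo.

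The study also compared the sex groups of cattle with each other. In castrated minus intact males 0 of the 67 genes passed, where 1.46% of all probe sets tested did. At an unadjusted p under 0.05, limma gave 11 genes as higher and 0 as lower, 16.4% and 0% of the members against 9.27% and 11.2% of all probe sets tested. The estimate was above 0 for 55 genes (82.1%, against 50.0% of all probe sets tested), and the median was 0.20, against 0.00. Without intact male 3 the median was 0.31 and 1 gene passed, where 6.91% of all probe sets tested did.

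MRPL34 had the smallest p, with 1295, 1708 and 1519.7 in castrated males against 617, 843 and 1193 in intact males, a difference of 0.80 ± 0.23 (adjusted p = 0.115). MRPS11, of the small-subunit platform, read 274, 244 and 268 in castrated males against 201, 213 and 124 in intact males, a difference of 0.54 ± 0.18 (adjusted p = 0.147). The castrated males were all above the intact males for both genes, and also for MRPS25 (0.58 ± 0.21), MRPL22 (0.47 ± 0.17), MRPS22 (0.39 ± 0.15) and MRPL45 (0.49 ± 0.19), whose adjusted p lay between 0.167 and 0.199. In all, 15 genes were wholly higher and 3 wholly lower, where 11.3% and 13.5% of all probe sets tested did not overlap in those directions.

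Females were set against the same intact males, so these values share those arrays. Again 0 of the 67 genes passed, where 5.50% of all probe sets tested did, and at an unadjusted p under 0.05 limma gave 7 higher and 1 lower, against 13.2% and 14.5% of all probe sets tested. The estimate was above 0 for 51 genes, 76.1% against 51.2% of all probe sets tested. The median was 0.13 over the members and 0.01 over all probe sets tested, and leaving out intact male 2 or intact male 3 gave 0.08 or 0.21. MRPL50 read 584, 549 and 653 in females against 378, 441 and 391 in intact males, a difference of 0.54 ± 0.16 (adjusted p = 0.0764). MRPL34 read 1294, 1508 and 1602 in females, and differed from intact males by 0.77 ± 0.23 (adjusted p = 0.0770). The females stood above the intact males for both genes, and for MRPS15 (0.64 ± 0.22) and MRPS36 (0.60 ± 0.21). MRPS35 differed by 0.76 ± 0.28 with overlap, and MRPL16, which lies near the catalytic centre, was lower in females at -0.38 ± 0.14 (adjusted p = 0.126), with 1508, 1192 and 1169 in females against 1786, 1672 and 1574 in intact males.

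Markers of other cell types differed between the intact males and the other cattle. All 6 fibroblast markers fell in castrated males and in females, with sums of 7985 to 9629.6 in females, 10378 to 11072 in castrated males and 30160.1 to 39519 in intact males. Of all probe sets tested, 0.840% fell in castrated minus intact males and 3.37% in female minus intact males. The 5 macrophage markers on the array summed to 397 to 1033 in females, 1038 to 1453 in castrated males and 2564 to 15875 in intact males. All 5 fell in females minus intact males, and 0 passed in castrated minus intact males, where all 5 were lower at an unadjusted p under 0.05 by limma. At that threshold 11.2% of all probe sets tested were lower in castrated males. PI16 read 657 to 819 in intact males, 67.2 to 80.4 in females and 82.4 to 102 in castrated males. MSR1 read 187 to 1653, 14.5 to 34.2 and 59.4 to 125 in that order. Both passed the filter on dim probe sets only through the intact males, so their calls are a description only. None of the fibroblast and macrophage markers was listed at 0 in any group, and their part in the members' values was not tested.

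Females were also set against castrated males. Here 0 of the 67 genes passed, where 0.0208% of all probe sets tested did, and at an unadjusted p under 0.05 limma gave 0 higher and 2 lower, MRPS22 and MRPS27, against 3.98% and 3.57% of all probe sets tested. The median was -0.05 over the members and 0.00 over all probe sets tested. MRPS22 read 371, 283 and 352 in females against 399.6, 450.4 and 475 in castrated males, a difference of -0.39 ± 0.15 (adjusted p = 0.625). MRPS27 differed by -0.25 ± 0.11 and MRPL27 by 0.26 ± 0.12, with adjusted p of 0.660 and 0.675.

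**Figure D5:**
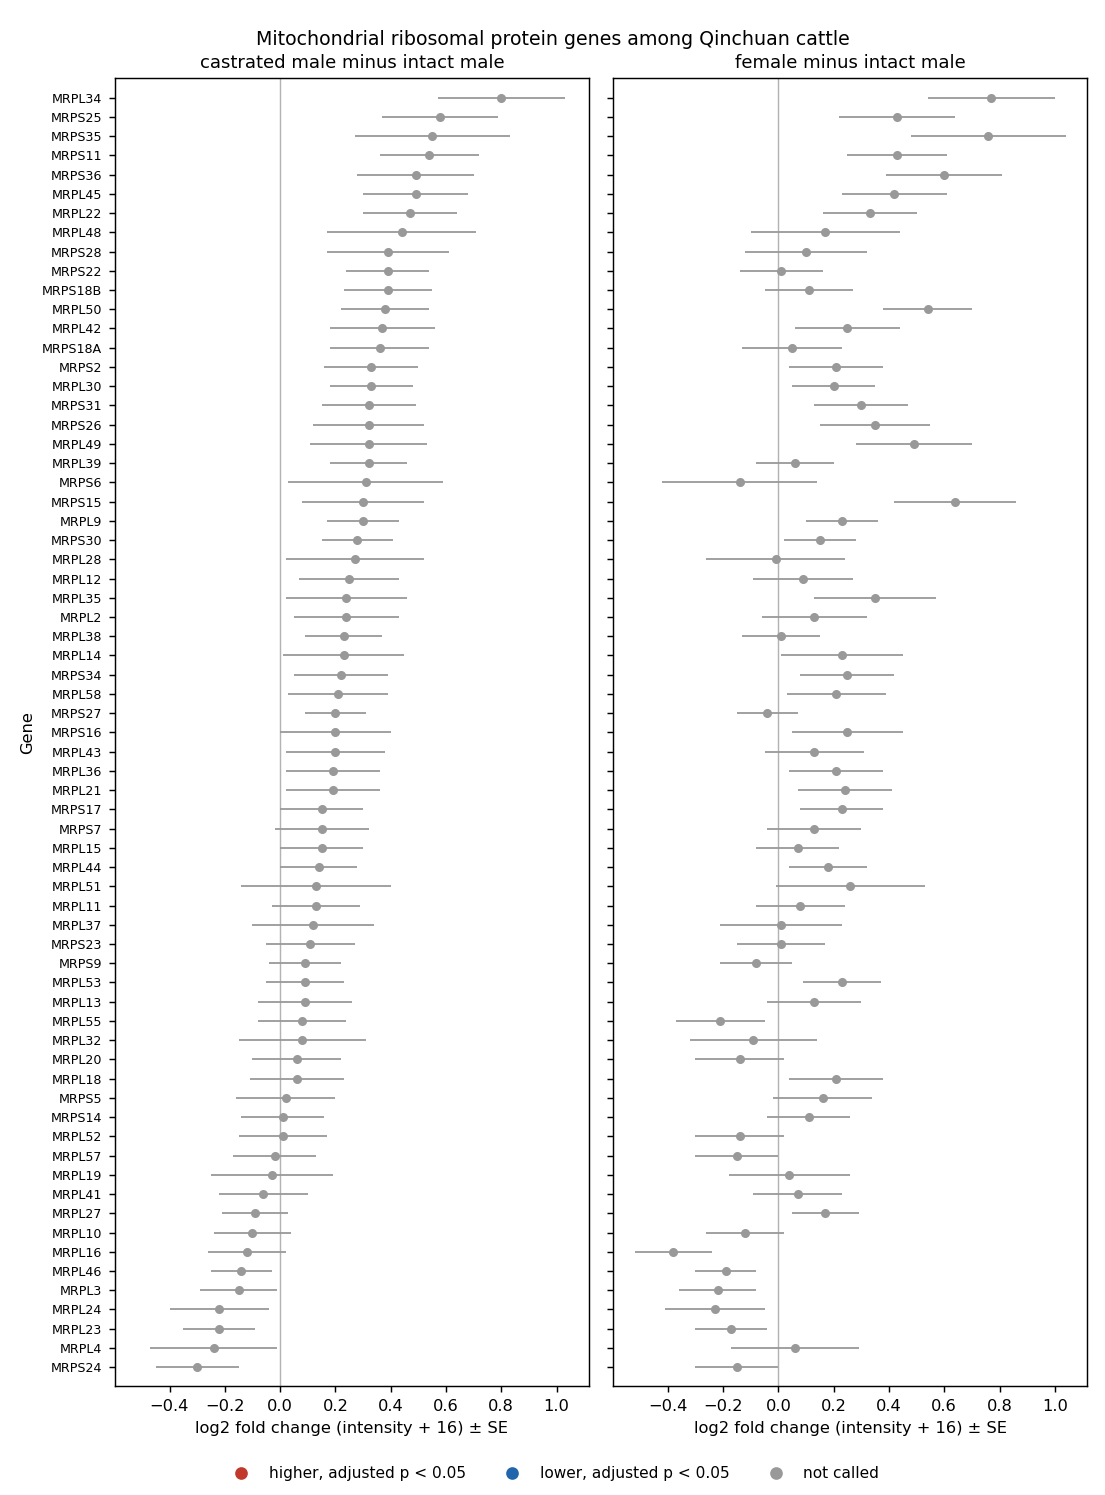
Log2 fold changes (x axis, ± SE) of the 67 genes in castrated minus intact males (left panel) and female minus intact males (right panel), with genes in the order of the left panel. No gene passed the test, and 55 of 67 estimates on the left and 51 of 67 on the right lie above 0.

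The rest of mitochondrial translation was read from lists of related genes. Beside their counts, 13.2% of all probe sets tested rose and 15.9% fell in yak. In buffalo 23.0% rose and 28.4% fell. Of the 5 other mitoribosome proteins measured under different symbols, PTCD3 rose in yak by 0.65 ± 0.17 and AURKAIP1 by 0.39 ± 0.10, while CHCHD1 fell by 0.86 ± 0.10 and DAP3 by 0.24 ± 0.08 on the log2 scale. CHCHD1 read 746, 783 and 802 in yak against 1274 to 1768 in cattle, a clear gap. In buffalo AURKAIP1 fell by 1.04 ± 0.10 and GADD45GIP1 by 0.67 ± 0.17 on the same scale, and none rose.

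Of the 12 mitochondrial translation factors, none rose in yak and 4 fell, and in buffalo 2 rose and 4 fell. MTRF1, a release factor relative, was among those that fell in both species, with 41.5, 38.6 and 39.7 in yak and 22.0, 28.5 and 27.1 in buffalo against 86.2 to 183 in cattle. The yak and buffalo values lie below the mean level that the filter on dim probe sets asked for, so MTRF1 was tested only because it was brighter in cattle, and the size of its change is not given. The recycling factor MRRF fell by 0.63 ± 0.16 in yak on the log2 scale and MTFMT, which formylates the initiator tRNA, by 0.63 ± 0.14. In buffalo the initiation factor MTIF2 rose by 0.92 ± 0.08. Of 16 factors that assemble the mitoribosome 5 rose and none fell in yak, led by the GTPase MTG1 at 0.96 ± 0.11, with 489, 465 and 417 in yak against 199 to 267 in cattle. In buffalo 5 of these rose and 4 fell, with NSUN4 at 1.55 ± 0.10 and NGRN at -2.55 ± 0.13. Of 14 mitochondrial aminoacyl-tRNA synthetases 4 rose and none fell in yak, among them HARS2 at 0.61 ± 0.09, and 3 rose and 4 fell in buffalo. The buffalo counts of assembly factors and synthetases lie near the 23.0% and 28.4% of all probe sets tested that rose and fell.

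The respiratory chain and ATP synthase list, whose core partners the mitoribosome makes, had 53 genes, of which 5 rose and 1 fell in yak (median 0.04) and 9 rose and 14 fell in buffalo (median 0.00). Of 62 cytosolic ribosomal proteins 1 rose and 6 fell in yak (median 0.00), and 3 rose and 30 fell in buffalo (median -0.20). Over all probe sets tested 13.2% rose and 15.9% fell in yak, and 23.0% rose and 28.4% fell in buffalo. Beside these the members' own medians were 0.26 in yak and -0.27 in buffalo. Markers of mitochondrial mass had medians of 0.16 in yak and 0.10 in buffalo. Assembly factors had 0.15 and -0.04, synthetases 0.12 and -0.04, and translation factors 0.05 and -0.13. Genes of mitochondrial DNA transcription and RNA had 0.08 and 0.01, and regulators of mitochondrial genes 0.12 and 0.31. The other mitoribosome proteins had 0.39 and -0.37. In castrated minus intact males the medians were 0.20 for the members, 0.15 for the respiratory chain list and -0.10 for cytosolic ribosomal proteins. Only COX8B of the second list passed, at 0.78 ± 0.14 (adjusted p = 0.0400). Markers of mitochondrial mass and genes of mitochondrial DNA transcription and RNA also had a median of 0.20. Assembly factors had 0.14, translation factors 0.13, synthetases 0.03 and regulators 0.01. In female minus intact males TFB1M, which methylates the small-subunit rRNA, rose by 0.67 ± 0.13 (adjusted p = 0.0260), with 184, 157 and 152 in females against 79.3, 106 and 108 in intact males. Of 16 assembly factors only 1, TFB1M, was called, where 5.50% of all probe sets tested were. RPSA (-0.69 ± 0.16), RPL3 (-0.91 ± 0.21) and the regulator MYC (-2.75 ± 0.53) were called lower. Medians were 0.13 for the members, 0.12 for the respiratory chain list and -0.10 for cytosolic ribosomal proteins. The other lists of related genes lay between -0.01 and 0.20.

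At the ends of the brightness range stood MRPL53, with a mean over 15 arrays of 3176, and MRPS9, with 136, though intensities of different probe sets do not rank transcript amounts. MRPS9 did not pass in yak (-0.07 ± 0.09) and fell in buffalo by 0.53 ± 0.09 on the log2 scale, with 91.1, 98.9 and 102 in buffalo against 128 to 182 in cattle. That fall rests on the brightest probe set, as another tested MRPS9 probe set was not called in buffalo (-0.08 ± 0.10, limma's adjusted p = 0.508). Over the 6 comparisons 56 of the 67 genes passed at least once (83.6%, against 68.3% of all probe sets tested). The 11 whose brightest probe set never passed were MRPL2, MRPL3, MRPL14, MRPL19, MRPL35, MRPL44, MRPL51, MRPS6, MRPS7, MRPS16 and MRPS22. The second MRPL14 probe set was called higher in buffalo, by 0.32 ± 0.08 over cattle (adjusted p = 0.00570) and by 0.52 ± 0.10 over yak (adjusted p = 0.00120).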

How the data were processed

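RNA of 15 longissimus dorsi samples, 3 in each of 5 groups, was hybridised to 1 Affymetrix bovine array each. Per the labels' protocols, Trizol was used to extract RNA, and 6 µg of total RNA went into biotinylated cRNA. The authors deposited 1 table of intensity values for 24128 probe sets on a linear scale; the labels used here name no software, background step or normalization. Array medians lay between 6.71 and 6.81 (log2 with 16 added), and replicates of a group correlated at 0.952 to 0.9901 over probe sets.

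The 112 control probe sets were set aside, 16 was added and log2 taken, with no further normalization. Probe sets with a mean above the 40th percentile (6.42) were tested, 14409 of 24016. Gene symbols came from the platform annotation, with 1 symbol for 13292 probe sets, several for 86, which were not used, and none listed for 10638. All 67 member genes matched the RefSeq gene table of ARS-UCD2.0 by Entrez identifier, and 0 symbols changed.

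Group means were fitted with limma 3.58.1 under R 4.3.3 (lmFit, eBayes with a trend), two-sided, with Benjamini-Hochberg adjustment over all probe sets tested in a comparison and a threshold of 0.05. Comparisons among cattle used the 9 cattle arrays. Comparisons with yak and buffalo used all 15, the cattle value being the mean over its 3 groups. An exact permutation test of 3 against 3 arrays has a smallest p of 0.1. The fits were also run on simulated data with known changes. There each probe set had the same spread on every array, so the simulation does not bear on arrays of unequal quality. Replicates of a group are called biological by the labels, with no animal identity given, so p-values measure the spread between these arrays.

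Members and gene lists were chosen with earlier results of these data known. Genes named are, per comparison, the 6 largest rises and 6 largest falls among members that passed, or the 6 with the smallest p where fewer than 4 passed; members of textbook role; members at the ends of the brightness range; members whose probe sets were called both ways; and up to 4 genes per related list with the smallest p. Other members are named only to account for a count or an unusual value, after their values were seen. Lists cover the 2 subunits, other mitoribosome proteins, translation and assembly factors, tRNA synthetases, the respiratory chain and cytosolic ribosomal proteins. Further lists cover mitochondrial DNA transcription and RNA, regulators of mitochondrial genes and markers of mitochondrial mass. All lists are described by counts or medians, with no set test. Alternatives were other pseudocounts, filters, scaling, probe set rules, weights, arrays fitted, a replicate block and leaving out each array. The replicate numbers of the labels did not pair arrays: 5 of 30 same-number pairs had a correlation over 0.1 (range -0.33 to 0.15).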

Additional observations from a re-analysis of the deposited data

Results flagged for a closer look

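For 6 genes the yak and buffalo comparisons with cattle were called in opposite directions, higher in yak and lower in buffalo, 8.96% of the members against 2.85% of all probe sets tested, and both comparisons use the same cattle arrays. That choice fixes the direction of buffalo minus yak, whose values are given as a description only. They were -1.18 ± 0.14 (log2, SE) for MRPL11, -1.45 ± 0.22 for MRPL28 and -1.52 ± 0.18 for MRPL49. They were -1.85 ± 0.16 for MRPL58, -1.31 ± 0.20 for MRPS25 and -2.10 ± 0.24 for MRPS35. In buffalo minus cattle the 6 genes stood at -0.44, -0.84, -1.03, -1.44, -0.74 and -1.19 in that order, and in yak minus cattle at 0.73, 0.62, 0.49, 0.41, 0.57 and 0.92. On the arrays, MRPL28 read 177, 234 and 216 in buffalo, 685, 569 and 547 in yak and 249 to 503 in cattle. MRPS25 read 221, 221 and 325 in buffalo, 625, 639 and 679.8 in yak and 237 to 578 in cattle. For MRPS35 the second probe set did not show this pattern, with a buffalo minus yak difference of 0.09 ± 0.15 (adjusted p = 0.640).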

How the results depend on the processing

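Array quality weights raised the number of genes called to 15 in castrated minus intact males (24.5% of all probe sets called), 14 in female minus intact males (35.2%) and 39 in yak minus cattle (48.7%). Their estimation stopped before its tolerance. In the fit on the 9 cattle arrays intact male 2 had a weight of 8.05 and intact male 1 a weight of 0.216. In the fit on 15 arrays, used for yak minus cattle, these weights were 4.30 and 0.237. Fitting all 15 arrays gave 1 and 3 genes in castrated and female minus intact males (4.98% and 13.3% of all probe sets called). Cattle without intact males gave 14 genes in yak (21.6%). With quantile normalization the medians were -0.01 in buffalo minus cattle and -0.30 in buffalo minus yak, and the calls split 19 higher to 18 lower and 11 to 27. Leaving out single arrays gave 0 to 1 genes in castrated minus intact males (median 0.17 to 0.31), 0 to 2 in female minus intact males (0.08 to 0.21), 0 in female minus castrated males (-0.08 to -0.02), 10 to 28 in yak minus cattle (0.21 to 0.28), 33 to 44 in buffalo minus cattle (-0.28 to -0.15) and 38 to 41 in buffalo minus yak (-0.52 to -0.38). The shares of all probe sets called in those fits were, in the same order, 0.285% to 6.91%, 0.534% to 15.2% and 0.0139% to 0.0694% among cattle. They were 15.8% to 32.2% in yak minus cattle, 43.1% to 54.7% in buffalo minus cattle and 32.8% to 46.5% in buffalo minus yak. The mean of its probe sets turned MRPS2 in buffalo minus yak to 0.01 (adjusted p = 0.950). With the replicate number as a block, 23 genes were called in yak minus cattle, 40 in buffalo minus cattle and 40 in buffalo minus yak. Of all probe sets, 27.6%, 50.0% and 40.8% were called in that order. In each comparison among cattle 0 genes were called. There 0.992% of all probe sets were called in castrated minus intact males, 4.46% in female minus intact males and 0.0208% in female minus castrated males. The arrays share only a number, and 18 of 60 matches were closest to the same number. Among the genes with the largest changes, those of textbook role that passed and those whose probe sets were called both ways, 5 of 9 kept their call in every setting in yak minus cattle, 15 of 20 in buffalo minus cattle and 16 of 19 in buffalo minus yak. The cause of these changes was not tested.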
